A study of Mus musculus with 6 samples.

Results

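The 10 genes described here encode transcription factors that set apart naive, memory and effector T cells. They are Tcf7 (TCF-1), Lef1, Myb, Bach2, Id3, Satb1 and Zeb1, which are associated with naive and memory cells, and Id2, Prdm1 (BLIMP-1) and Zeb2, which are associated with effector cells. They were taken by symbol from the 55291 symbols of the table, and all 10 were among the 13170 genes tested. The set was put together with the itaconate against NaCl differences of these libraries already known. The differences of the 10 genes are therefore given as a description. Where their adjusted p-values are set against a threshold below, that too is a description and no test of the set.

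The cells were CD4+ (helper) T lymphocytes from the spleens of naive wild-type C57BL/6 mice, whose age the labels do not give. All of them were labelled with CFSE, a dye diluted by cell division, and cultured for 48 h with antibodies to CD3 and CD28, which mimic antigen and costimulation, and 200 U of IL-2. One group of 3 libraries had 5 mM itaconate, a metabolite made by activated macrophages, in the medium, and the other 3 had 5 mM NaCl in its place. In the table the latter are coded NAC, which is not explained and was taken to mean NaCl, the sole other treatment in the labels. The libraries held 20074301 to 24144988 estimated reads, and nothing in the labels ties them to separate mice, so the p-values below rest on how far libraries of a group differ, and that may be technical variation alone.

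TCF-1 and LEF-1 are HMG box factors that bind the same DNA motif, act with beta-catenin or Groucho/TLE corepressors, and keep T cells able to self-renew. MYB is needed in blood progenitors and in stem-like memory T cells, and BACH2 holds back effector genes, Prdm1 among them. ID2 and ID3 have no DNA-binding domain and work by capturing E proteins, while ZEB1 and ZEB2 are repressors that bind E-box sequences, BLIMP-1 represses the naive and memory programme, and SATB1 organises chromatin in T cells.

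The sequences below are shown because known circuits join these genes, and each window holds letters that one of the factors is known to bind. RefSeq windows from 250 bases before to 50 bases after an annotated start site were searched for 9 of the 10 genes (20 windows, GRCm38.p6). Zeb1 was left out of this search. Capitals mark matches, on either strand, to TCAAAG (the TCF/LEF core), AACNGTT (MYB), CAGGTG (an E-box of ZEB and E proteins), TGANTCA (BACH2 and AP-1) or GAAAGTG (BLIMP-1). No letters of these motifs overlap in the windows printed.
Tcf7, chr11:52282546-52282845, minus strand: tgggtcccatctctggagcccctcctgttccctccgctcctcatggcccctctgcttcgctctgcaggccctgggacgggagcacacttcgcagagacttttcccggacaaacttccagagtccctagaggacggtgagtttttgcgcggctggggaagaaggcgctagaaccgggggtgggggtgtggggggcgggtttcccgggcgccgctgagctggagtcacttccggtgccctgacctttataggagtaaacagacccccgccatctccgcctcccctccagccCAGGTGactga
Lef1, chr3:131156044-131156343, plus strand: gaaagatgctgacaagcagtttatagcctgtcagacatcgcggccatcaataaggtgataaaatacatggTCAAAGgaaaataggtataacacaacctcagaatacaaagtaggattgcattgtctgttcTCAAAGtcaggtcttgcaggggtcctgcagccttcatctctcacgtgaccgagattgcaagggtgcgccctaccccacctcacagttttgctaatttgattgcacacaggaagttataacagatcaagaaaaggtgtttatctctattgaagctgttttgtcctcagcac
Bach2, chr4:32417185-32417484, plus strand: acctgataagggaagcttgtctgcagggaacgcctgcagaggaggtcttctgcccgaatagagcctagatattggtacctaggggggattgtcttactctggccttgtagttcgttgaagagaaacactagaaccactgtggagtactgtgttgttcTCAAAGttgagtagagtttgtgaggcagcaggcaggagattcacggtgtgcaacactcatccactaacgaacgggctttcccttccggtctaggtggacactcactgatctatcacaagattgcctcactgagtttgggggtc
Prdm1, chr10:44458699-44458998, minus strand: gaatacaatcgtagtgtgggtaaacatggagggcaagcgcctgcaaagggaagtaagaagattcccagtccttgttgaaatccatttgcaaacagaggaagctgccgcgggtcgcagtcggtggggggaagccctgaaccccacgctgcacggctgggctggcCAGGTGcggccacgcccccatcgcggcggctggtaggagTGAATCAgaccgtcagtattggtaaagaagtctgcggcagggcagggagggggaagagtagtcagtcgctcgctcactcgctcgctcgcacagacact
Zeb2, chr2:45110228-45110527, minus strand: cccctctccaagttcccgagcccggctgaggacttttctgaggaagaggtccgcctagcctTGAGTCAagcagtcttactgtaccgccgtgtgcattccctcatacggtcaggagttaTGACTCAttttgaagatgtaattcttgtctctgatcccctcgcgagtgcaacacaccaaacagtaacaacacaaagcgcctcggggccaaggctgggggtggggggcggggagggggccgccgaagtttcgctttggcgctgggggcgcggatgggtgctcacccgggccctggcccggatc

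The Prdm1 window held TGAATCA beginning 48 bases before the start site and an E-box beginning 87 bases before it. A Zeb2 window held TGAGTCA and TGACTCA, which begin 189 and 132 bases before its start site. The TCF/LEF core was found in the Bach2 window and at 2 positions of a Lef1 window. The start sites of all 5 windows printed lie inside the full annotated span of their gene. E-boxes were found at Tcf7, Lef1, Satb1 and Prdm1, and no window held the MYB or the BLIMP-1 letters. Among the 20 windows, 2 held the TCF/LEF core, 5 the E-box and 2 the BACH2 and AP-1 letters. The shares among all 32851 windows of the RefSeq table were 16.0% for the TCF/LEF core, 20.2% for the E-box, 7.81% for BACH2 and AP-1, 4.45% for MYB and 4.81% for BLIMP-1. Matches are a description of letters, and binding was not measured here.

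Against this background, Tcf7, Myb and Id3 were 2.82-fold to 4.09-fold higher with itaconate and Prdm1, Id2 and Zeb2 were 1.77-fold to 4.60-fold lower. The 7 factors of naive and memory cells did not move as one: Satb1 and Lef1 were lower, and Bach2 and Zeb1 differed little. Values are normalized estimated counts, and fold changes are on the log2(value + 1) scale, with itaconate minus NaCl differences and their standard errors from limma. With the threshold of an adjusted p under 0.05, 3 of the 10 were higher, 5 were lower and 2 did not pass, where 36.0% of all tested genes passed (18.2% higher and 17.8% lower). Because the set was chosen on this comparison, nothing is read from that count. The median log2 difference was 0.20 over the 7 naive and memory factors, which is the value of Bach2, and -1.25 over the 3 effector factors, which is the value of Id2, beside -0.00095 over all tested genes. In bulk RNA, a change in the number of cells that express a gene and a change in RNA per cell cannot be told apart.

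**Figure D1:**
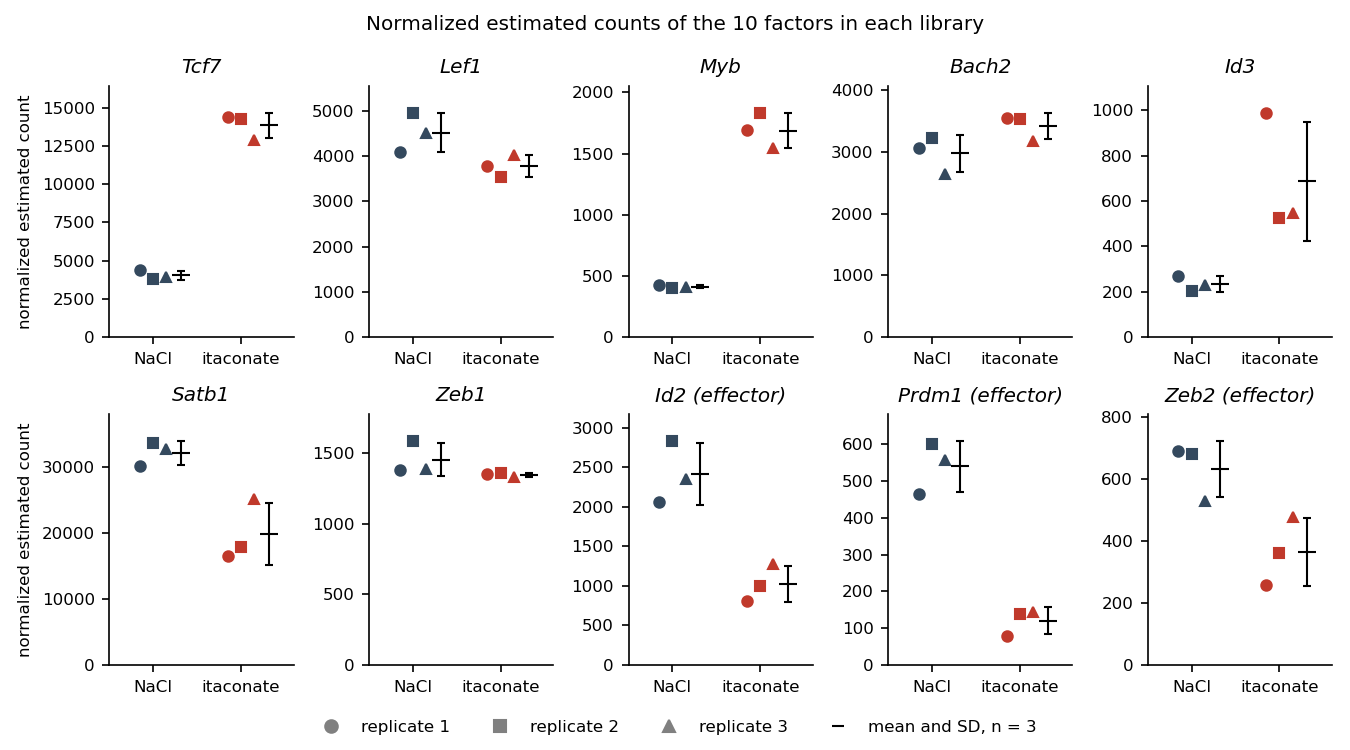
Normalized estimated counts (vertical axes, each from 0) of the 10 factors in each NaCl and itaconate library, with a symbol for each replicate number and the mean and SD of 3 libraries as a bar beside the points. The groups lie far apart for Tcf7, Myb and Prdm1 and intermingle for Bach2.

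Tcf7 (ENSMUSG00000000782.15, GRCm38 chromosome 11, 52252371 to 52283014) encodes TCF-1. Its normalized estimated counts were 14374.5, 14240.0 and 12906 in itaconate replicates 1, 2 and 3, and 4381, 3810.3 and 3923 in the NaCl replicates. Every itaconate library was far above every control, and the spread within each group was small next to the gap. The means were 13840.1 ± 812 and 4038 ± 302 (SD, n = 3), a log2 difference of 1.78 ± 0.087 (SE). Of the 13170 tested genes, 185 had a larger log2 difference in this direction. Lef1 (ENSMUSG00000027985.14, chromosome 3, 131110471 to 131224356), the closest relative of Tcf7 in T cells, went slightly the other way. It had 3789.9, 3541 and 4017 with itaconate and 4094, 4955 and 4513 in NaCl. The highest itaconate library lay just under the lowest control, and the log2 difference was -0.25 ± 0.093 (SE, n = 3). Lef1 was past the threshold under 6 of 16 alternative settings, and no longer so without itaconate replicate 1, itaconate replicate 2, NaCl replicate 2 or NaCl replicate 3.

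Merged exons join those of all annotated isoforms, 2625 bases for Tcf7 and 8788 for Lef1. They can exceed the transcript present, so levels per kilobase (kb) compare different genes only roughly. On this scale Tcf7 was 2.57 to 3.58 times the level of Lef1 in the NaCl libraries and 10.8 to 13.5 times in the itaconate libraries. Tcf7l1 and Tcf7l2, the other genes of the family, were low: Tcf7l2 was under the mean of 10 needed for testing, and Tcf7l1 had 71.3 ± 13.2 with itaconate and 97.7 ± 23.5 in NaCl (SD, n = 3; adjusted p = 0.223 in limma). Tcf7 made up 92.1% ± 0.88 of the family's summed level per kb with itaconate and 74.0% ± 3.28 in NaCl (SD, n = 3). By this measure most of the family's summed level came from Tcf7 in both groups, and the share was higher in each itaconate library than in any control.

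Myb (ENSMUSG00000019982.15, chromosome 10, 21124935 to 21160984) had the largest positive difference of the 10. Its counts were 1690.1, 1831 and 1543 with itaconate and 426, 401 and 406 in NaCl. Both groups were tight, with means of 1688 ± 144 and 411 ± 13.4 (SD, n = 3). The log2 difference was 2.03 ± 0.11 (SE), and 125 tested genes exceeded it. Its relatives were not among the 10 and were tested, but their list was also chosen with earlier results of these data known. Mybl1 rose from 124.6 ± 28.9 to 326 ± 26.0 (n = 3, SD), a log2 difference of 1.41 ± 0.20 (SE; limma adjusted p = 0.000183). Mybl2, a factor of dividing cells, rose from 741 ± 95.0 to 1168 ± 69.8 (log2 fold change 0.66 ± 0.12 SE, limma adjusted p = 0.00091). Myb nevertheless took a larger share of the family's summed level per kb with itaconate, 37.7% ± 1.99, than in NaCl, 20.2% ± 1.70 (SD, n = 3). A list of 10 genes of dividing cells rose in full beside these, where 18.2% of all tested genes rose. The summed count of that list was 53082 to 75654 in the itaconate libraries and 30898 to 33781 in NaCl. Its part in the Myb family values was not tested.

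**Figure D2:**
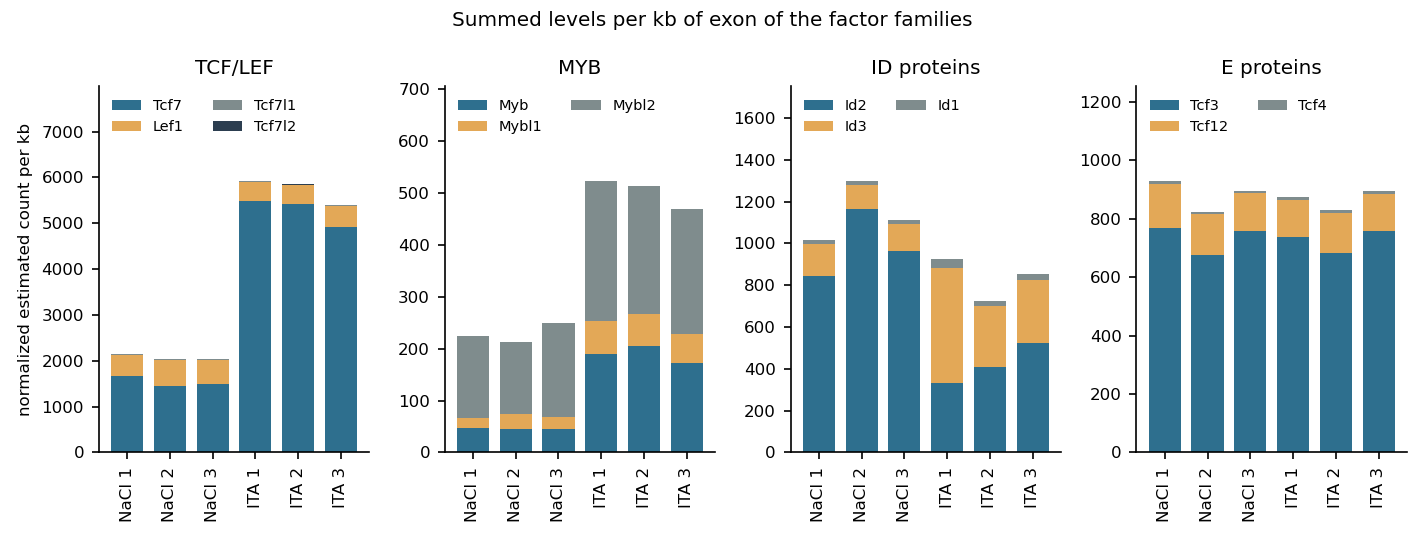
Summed normalized estimated counts per kb of merged exon (vertical axes) of 4 factor families in each library, with 1 stacked colour for each gene. The TCF/LEF and MYB bars are taller in the itaconate libraries, the ID bars change in make-up, and the E protein bars of the groups overlap in height.

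Bach2 (ENSMUSG00000040270.16, chromosome 4, 32238804 to 32586108), the repressor of effector genes, had 3556, 3534 and 3181 with itaconate and 3062, 3225 and 2643 in NaCl. Itaconate replicate 3 lay below NaCl replicate 2, so the groups overlapped. The log2 difference was 0.20 ± 0.096 (SE, n = 3). It was 0.122 without NaCl replicate 3 and 0.257 without itaconate replicate 3. Bach1, its widely expressed relative, did not pass (log2 fold change -0.069 ± 0.13 SE, limma adjusted p = 0.721).

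Satb1 (ENSMUSG00000023927.15, chromosome 17, 51736187 to 51833290), the chromatin organiser, was lower, with 16497, 17822 and 25144 with itaconate and 30116, 33633 and 32705.5 in NaCl. The groups did not overlap, but itaconate replicate 3 lay well above the other itaconate libraries. The log2 difference was -0.72 ± 0.13 (SE, n = 3), and -0.905 without that library. Zeb1 (ENSMUSG00000024238.15, chromosome 18, 5591860 to 5775467) was the steadiest of the 10. It had 1353, 1359 and 1333 with itaconate and 1384, 1589 and 1391 in NaCl, a log2 difference of -0.11 ± 0.096 (SE, n = 3). All itaconate libraries were below all controls, as they were for 24.2% of tested genes, yet the gap was smaller than the spread of the controls.

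The ID genes moved in opposite directions. Id3 (ENSMUSG00000007872.3, chromosome 4, 136143497 to 136145755) had 988, 526 and 545 with itaconate and 269, 203 and 231 in NaCl. Itaconate replicate 1 was far above the other itaconate libraries, which were themselves above all controls. The log2 difference was 1.49 ± 0.22 (SE, n = 3), and 1.199 without itaconate replicate 1. Id2 (ENSMUSG00000020644.9, chromosome 12, 25093799 to 25097140) had 809, 996 and 1272 with itaconate and 2060.0, 2839 and 2348 in NaCl. Its groups lay apart, with a log2 difference of -1.25 ± 0.16 (SE, n = 3).

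Per kb, Id2 was the main ID gene of the control libraries, with 86.5% ± 3.35 of the summed level of Id1, Id2 and Id3 (SD, n = 3). With itaconate its share was 35.9%, 56.3% and 61.1% in replicates 1, 2 and 3, and Id3 exceeded Id2 in replicate 1 alone. The summed ID level was 725.5 to 925 with itaconate and 1018 to 1299 in NaCl, so the groups did not overlap, where 48.4% of tested genes did not. Of 4 tested E and ID genes outside the 10, 0 passed in limma and 0 had an unadjusted p under 0.05 (median 0.097). Among the E proteins, which the ID proteins capture, Tcf3 (log2 fold change -0.014 ± 0.089 SE, limma adjusted p = 0.92), Tcf4 (0.21 ± 0.16, limma adjusted p = 0.332) and Tcf12 (-0.11 ± 0.09, limma adjusted p = 0.371) did not pass. Id1 was low in all libraries (0.51 ± 0.39 SE, limma adjusted p = 0.342). E protein messages came to 829 to 894 per kb with itaconate and 824 to 929 in NaCl. The ratio of the E protein sum to the ID sum was 1.05 ± 0.098 with itaconate and 0.785 ± 0.14 in NaCl (SD, n = 3). The groups nearly touched, with 0.947 in itaconate replicate 1 just above 0.913 in NaCl replicate 1.

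Prdm1 (ENSMUSG00000038151.13, chromosome 10, 44437177 to 44528501), the gene of BLIMP-1, had the largest negative difference of the 10. It had 77.6, 139 and 145 with itaconate and 464, 600 and 556 in NaCl. The lowest value rested on 83 estimated reads, and all itaconate libraries were far below the controls. The means were 120.3 ± 37.1 and 540.1 ± 69.3 (SD, n = 3), with a log2 difference of -2.20 ± 0.23 (SE). Of the tested genes, 186 had a lower log2 difference. Zeb2 (ENSMUSG00000026872.17, chromosome 2, 44983632 to 45117395), a repressor that works with T-bet in effector CD8 T cells, had 257, 361 and 477 with itaconate and 691, 680.1 and 528 in NaCl. The groups did not overlap, although itaconate replicate 3 came close to NaCl replicate 3. The log2 difference was -0.83 ± 0.20 (SE, n = 3). It was -0.598 without itaconate replicate 1 and -1.04 without itaconate replicate 3, and Zeb2 was not past the threshold without the intensity trend of the fit. Zeb2os, an antisense RNA at Zeb2, was at 2.59% of the Zeb2 mean, and no other gene annotated on top of one of the 10 reached 1% of its mean. The strand setting of the counting is not given in the sources used here, so reads of such pairs could be exchanged.

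**Figure D3:**
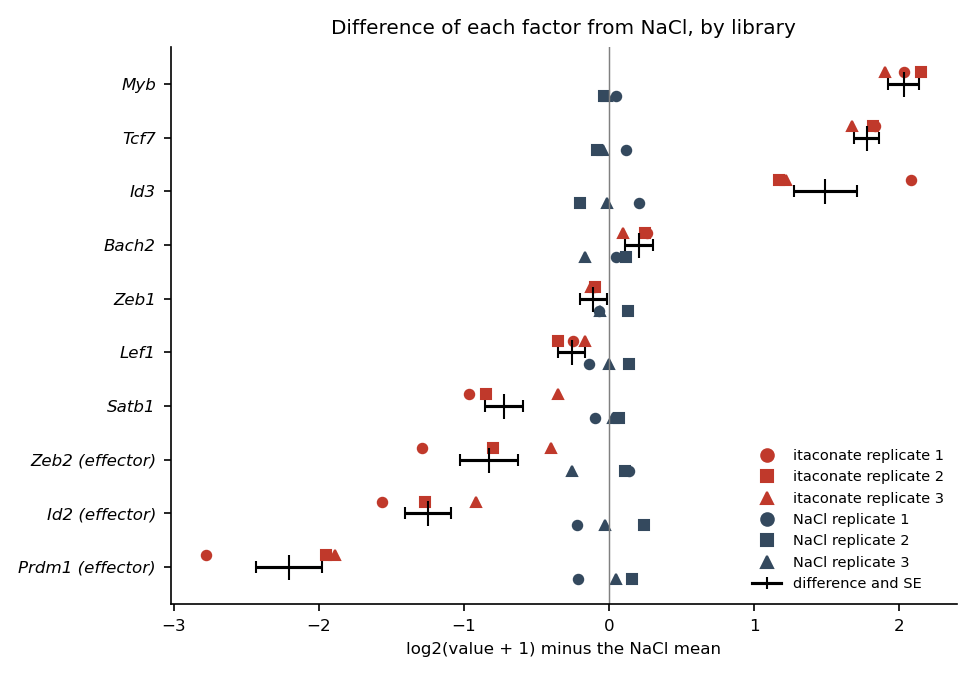
Difference of each library from the NaCl mean on the log2(value + 1) scale (horizontal axis) for the 10 factors, ordered by size, with itaconate libraries above and NaCl libraries below each line, and the difference of the means with its SE in black. Itaconate replicate 3 is the itaconate library closest to NaCl for Satb1, Id2, Prdm1 and Zeb2.

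Itaconate replicate 3 was the itaconate library nearest to the NaCl mean for 8 of the 10 genes, and replicate 2 for the other two. The genes of dividing cells had their lowest itaconate sum in the same library (53082), and its depth of 20549147 estimated reads was within the range of the others. Whether these go together for 1 reason was not tested. Without this library Tcf7, Myb, Id3, Lef1, Satb1, Id2, Prdm1 and Zeb2 were past the threshold, as they were with all 6 libraries.

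Ratios within a library do not depend on how libraries are scaled to each other, and they set each pair of opposing or related factors side by side. In each pair the factor with the higher difference comes first, so the direction follows from the differences above and is a description. Among single tested genes, 48.4% had groups that did not overlap. The Id3 to Id2 ratio per kb was 1.66, 0.72 and 0.583 in itaconate replicates 1, 2 and 3, and 0.178, 0.0973 and 0.134 in the NaCl replicates. That is a 6.71-fold difference, with the groups apart. The Bach2 to Prdm1 ratio, a repressor and its known target, was 12.3 to 25.7 with itaconate and 2.67 to 3.704 in NaCl, 5.34-fold apart. Most of that difference was in Prdm1, since Bach2 differed by 0.20 and Prdm1 by -2.20 on the log2 scale. The Tcf7 to Prdm1 ratio was 189.5 to 393.5 with itaconate and 13.5 to 20.1 in NaCl, 15.9-fold apart. For Zeb1 to Zeb2 the ratio was 5.43 to 10.2 with itaconate and 3.89 to 5.11 in NaCl, so the groups nearly touched. Myb to Satb1, both of the naive and memory set, differed 6.75-fold, from 0.0254 to 0.0302 in NaCl to 0.131 to 0.219 with itaconate.

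**Figure D4:**
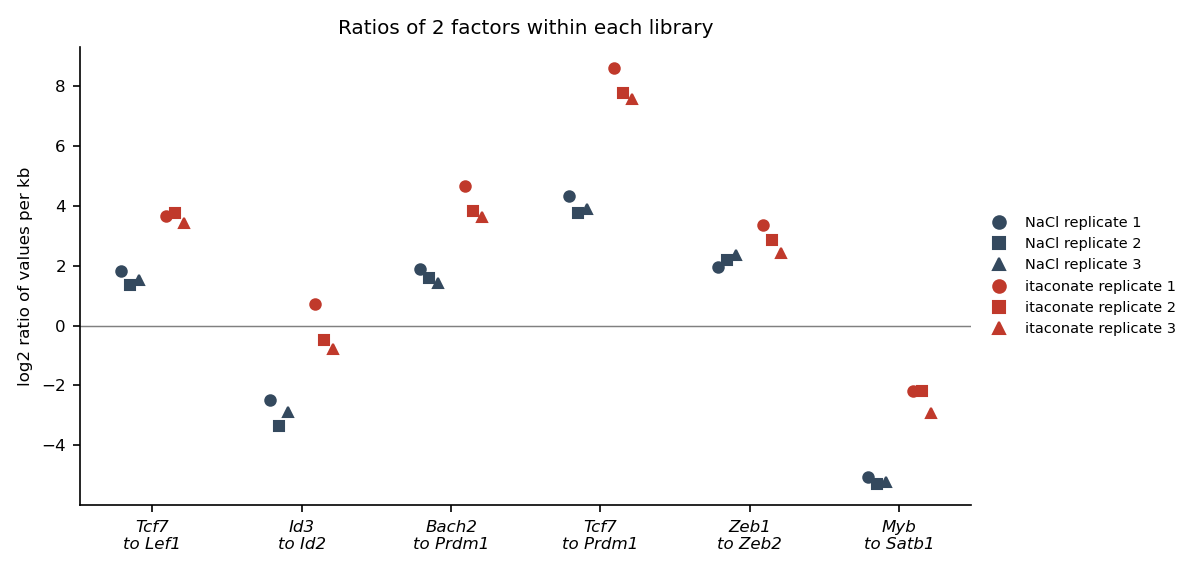
Log2 ratio of the values per kb of 2 factors (vertical axis) within each library, for 6 pairs of factors, with NaCl libraries in dark blue and itaconate libraries in red. The factor with the higher itaconate minus NaCl difference comes first in each pair, so all 6 ratios are higher in the itaconate libraries. The Zeb1 to Zeb2 groups come closest.

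The order of the levels per kb also differed between the groups. It rests on merged exon lengths, from 1791 bases for Id3 to 19942 for Zeb2, which can exceed those of the transcripts present. In NaCl the order was Satb1 (1689.8), Tcf7 (1538), Id2 (991), Lef1 (514), Bach2 (299.5), Zeb1 (142), Id3 (131), Prdm1 (96.8), Myb (46.0) and Zeb2 (31.8). Between libraries, Satb1 overlapped with Tcf7 and Zeb1 with Id3, and the other neighbours in this order did not overlap. With itaconate Tcf7 (5272) stood far above Satb1 (1042), and Lef1 (430.4), Id2 (420.6), Id3 (383) and Bach2 (344) followed with overlapping neighbours. Myb (189) came next, above Zeb1 (131), and Prdm1 (21.6) and Zeb2 (18.3) shared the bottom with overlapping values. Over all libraries Tcf7 was at the 98.3 percentile of the 12953 tested genes with a known exon length, Myb at the 48.2 percentile and Zeb2 at the 20.8 percentile.

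Genes with the most similar course over the 6 libraries were sought by the root mean square difference of log2(value + 1) profiles, each centred on its mean, among 10213 genes with a mean of at least 50. For Tcf7 these were Clec2i, a C-type lectin gene, Whrn, a scaffold protein gene, and Tbc1d30, with differences of 0.0951, 0.096 and 0.107. For Myb they were the potassium channel gene Kcnd1 (0.129), the matrix protein gene Fbln1 (0.13) and the fatty acid transport gene Slc27a3 (0.148). Bach2 lay closest to Ralgapa1, Cacul1 and Cd2ap (0.0223, 0.0232 and 0.0332). Id2 lay closest to Cd101, Abhd18 and the growth factor gene Vegfa (0.0778, 0.0891 and 0.0949). Vegfa had 1345 ± 241 with itaconate and 3168 ± 254 in NaCl (SD, n = 3). The likeness rests on 2 groups of 3 libraries and is a description.

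Around TCF-1, 6 of 15 tested relatives, cofactors and brakes rose and 1 fell, with a median log2 fold change of 0.16 (36.0% of all genes passed). This list and those that follow were chosen with earlier results of these data known, so their counts and p-values are a description. Axin2, a feedback brake of Wnt signalling and a known TCF target, rose from 189.7 ± 18.7 to 406 ± 20.7 (n = 3, SD), a log2 difference of 1.10 ± 0.15 (SE; limma adjusted p = 0.000151). The beta-catenin cofactor gene Bcl9l rose by 0.65 ± 0.11 and the TLE corepressor gene Tle2 by 0.98 ± 0.19 on the log2 scale (limma adjusted p = 0.00069 and 0.00196). Gsk3b, a kinase that marks beta-catenin for destruction, fell (log2 fold change -0.43 ± 0.089 SE, limma adjusted p = 0.00251). Ctnnb1, beta-catenin itself, did not pass (0.16 ± 0.083, limma adjusted p = 0.15) and was named after its value was seen.

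Of 7 relatives and partners of MYB, 4 rose and 1 fell (median 0.38), where 18.2% of all tested genes rose and 17.8% fell. Beside Mybl1 and Mybl2, the MLL methyltransferase gene Kmt2a rose by 0.45 ± 0.10 on the log2 scale (SE, limma adjusted p = 0.00531), while Cebpb fell (log2 fold change -0.80 ± 0.13 SE, limma adjusted p = 0.00058). Without the intensity trend Kmt2a was at the threshold (limma adjusted p = 0.05) and 2 of this list rose. Of 7 relatives and partners of BACH2, 0 rose in limma (0 also at an unadjusted p under 0.05) and 4 fell (median -0.37). Hmox1, the heme oxygenase gene that BACH1 represses, fell from 376 ± 48.8 to 149.9 ± 14.3 (n = 3, SD), a log2 difference of -1.32 ± 0.17 (SE; limma adjusted p = 9.54e-05). Nfe2l1 (-0.59 ± 0.081) and the small MAF gene Maff (-0.77 ± 0.17) fell as well (limma adjusted p = 0.000155 and 0.00337). Of 11 tested corepressors used by ZEB, SATB1 and BLIMP-1, 3 rose and 1 fell (median 0.0038), a share near the 36.0% of all tested genes. Those past the threshold were Ehmt2, the G9a methyltransferase gene (0.36 ± 0.079), Ncor1 (0.33 ± 0.086) and the demethylase gene Kdm1a (0.32 ± 0.085), all higher, and Hdac3 (-0.44 ± 0.11; limma adjusted p = 0.00361, 0.00934, 0.0108 and 0.00756). Ncor1 was no longer past the threshold without itaconate replicate 2 (limma adjusted p = 0.0504) or without the intensity trend (0.0554).

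**Figure D5:**
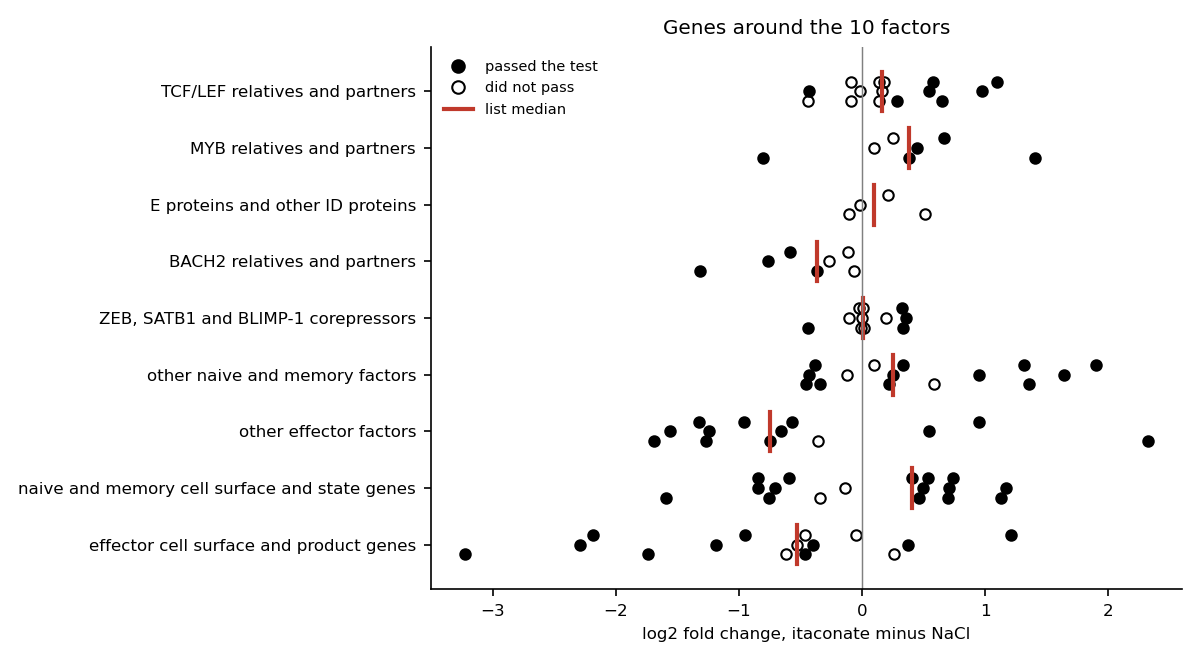
Log2 fold change (horizontal axis, itaconate minus NaCl) of the tested genes of 9 lists around the 10 factors, 1 point per gene, filled where the gene passed the test, with the list median as a red line. The other effector factors have the lowest median, -0.745, and points lie on both sides of 0 in every list except that of BACH2 relatives.

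Other factors of naive and memory cells were mixed, with 8 of 15 up and 4 down (median 0.25). Of all tested genes, 18.2% were up and 17.8% down. Klf3 rose from 171 ± 13.1 to 439 ± 26.2 (n = 3, SD), a log2 difference of 1.36 ± 0.15 (SE; limma adjusted p = 3.14e-05). On the log2 scale Tox rose by 1.64 ± 0.19 and Bcl6, the factor of follicular helper cells that opposes BLIMP-1, by 1.90 ± 0.32 (limma adjusted p = 5.34e-05 and 0.000593). Bcl6 had 349.8, 348 and 137.5 with itaconate and 64.2, 74.3 and 65.4 in NaCl, so itaconate replicate 3 stood apart there too. Gfi1 (-0.43 ± 0.092), Ets1 (-0.45 ± 0.12) and Klf7 (-0.38 ± 0.10) fell (limma adjusted p = 0.00311, 0.00925 and 0.0126). The call of Klf7 ended without itaconate replicate 2 (limma adjusted p = 0.0519) or NaCl replicate 2 (0.0632), and without the intensity trend (0.0569). The call of Ets1 ended after quantile normalization (log2 fold change -0.252, limma adjusted p = 0.123) and without the intensity trend (0.0751). Without itaconate replicate 2 or NaCl replicate 3, 5 of this list rose, and without NaCl replicate 2, 2 fell. Without the intensity trend, 5 rose and 1 fell.

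Other effector factors mostly fell, 9 of 13 against 3 that rose (median -0.745). Of all tested genes, 17.8% fell and 18.2% rose. Batf, Gata3 and Bhlhe40 had log2 fold changes of -1.69 ± 0.12, -1.27 ± 0.12 and -0.96 ± 0.11 (SE, n = 3; limma adjusted p = 1.73e-06, 8.38e-06 and 3.14e-05). Among those that rose were Rora (0.95 ± 0.19) and Ahr (0.54 ± 0.16; limma adjusted p = 0.00222 and 0.0193). The call of Ahr ended without itaconate replicate 1 (limma adjusted p = 0.0656), itaconate replicate 2 (0.0814) or NaCl replicate 1 (0.0561).

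Of 17 surface and state genes of naive and memory cells, 9 rose and 6 fell (median 0.40). The shares over all tested genes were 18.2% and 17.8%. Actn1 (1.17 ± 0.11), the lymph node homing receptor gene Ccr7 (0.70 ± 0.10) and Igfbp4 (1.13 ± 0.24) rose (limma adjusted p = 7.67e-06, 0.000278 and 0.00283). The call of Igfbp4 ended without the intensity trend (limma adjusted p = 0.0562) and with robust variances (0.0726). The survival gene Bcl2 (-0.76 ± 0.092), the ATP receptor gene P2rx7 (-1.59 ± 0.27) and Ltb (-0.71 ± 0.12) fell (limma adjusted p = 6.51e-05, 0.000589 and 0.000874), and 3 of the list fell without the intensity trend. Of 15 tested effector surface and product genes, 2 rose and 8 fell (median -0.53). Il10, a cytokine gene that BLIMP-1 is known to activate, fell from 176 ± 28.7 to 20.6 ± 11.9 (n = 3, SD), a log2 difference of -3.23 ± 0.43 (SE; limma adjusted p = 0.000129). Il2ra (-1.18 ± 0.14) and the chemokine gene Ccl5 (-2.19 ± 0.26) fell too (limma adjusted p = 4.13e-05 and 5.94e-05). The activation and memory marker gene Cd44 rose by 1.21 ± 0.16 and Lag3 by 0.37 ± 0.094 on the log2 scale (limma adjusted p = 9.33e-05 and 0.00847). Without itaconate replicate 2 Lag3 was no longer past the threshold (0.0504), which left 1 riser, and without the intensity trend (0.0604) 1 rose and 5 fell.

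The T cell identity of the libraries was clear from Cd3d, Cd3e, Cd3g, Cd4, Cd5, Lck and Cd28, all of them abundant. Of these, 4 rose and 1 fell, where 18.2% of all tested genes rose and 17.8% fell. Markers of other cells were low. The summed count of 6 B cell genes was 223 to 363 with itaconate and 256 to 378 in NaCl, and 0 of the 5 tested passed in limma, and 0 had an unadjusted p under 0.05. Of 7 myeloid genes, S100a8 and S100a9 were at 0 in every library and Lyz2 was at 2.04 or less, while Itgam rose (14.2 ± 9.12 to 59.0 ± 17.2, SD, n = 3; limma adjusted p = 0.00522). The myeloid sum was 46.8 to 81.9 with itaconate and 7.03 to 27.0 in NaCl, and most of it was Itgam. Sdc1, the 1 plasma cell gene tested, rose (81.3 ± 9.53 to 146 ± 29.9, SD, n = 3; limma adjusted p = 0.0145), while Tnfrsf17 was at 0 in every library and Jchain at 2.05 or less. The part of these markers in the values of Prdm1 and Zeb2 was not tested. Erythroid genes summed to at most 3.01. Natural killer cell genes, with Klre1 at 0 in every library, summed to at most 16.4, and 1 of 5 dendritic cell genes rose (Zbtb46, 73.2 ± 17.9 to 122.9 ± 11.4; limma adjusted p = 0.0323). CD8 T cell genes summed to 308 to 365 with itaconate and 363 to 408 in NaCl, with 0 of 2 past the threshold in limma and 0 at an unadjusted p under 0.05.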

How the data were processed

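RNA of 6 libraries was sequenced, 3 per treatment. The deposited data are 1 table with a gene symbol per line and, for every library, a normalized estimated count, used here as an expression signal. The submitters' processing notes name the mm10 build, STAR 2.7.0f and RSEM 1.3.0. No source used here gives the annotation, the tool behind the size factors, the strand setting or any filter. The most frequent value above 0 of a library was taken as 1 read, which gave the estimated totals. Of the values above 0, 79.9% to 82.0% were then whole within 0.02 reads, too few for a count model. For 107 symbols on several entries the one with the highest mean was kept.

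Genes with a mean of at least 10 (13170) were fitted as log2(value + 1) using limma 3.58.1 (R 4.3.3), the variance prior following mean intensity, with no covariate, two-sided tests and Benjamini-Hochberg adjustment at 0.05. This scale understates changes of low genes, and a change common to most genes is removed by the scaling. Merged exon lengths and positions are from GENCODE M21 (GRCm38). Aes was matched to Tle5 through RefSeq synonyms. The fit code was run on simulated data with far fewer changed genes than passed here, which does not measure its errors in these data. Groups came from the sample labels. The 10 genes and all gene lists were chosen with earlier results of these data known. Named genes of a list are the up to 3 with the smallest p in each direction, with defining relatives of the 10 added. One gene that this rule names is not reported here. Alternatives were other pseudocounts, filters, scalings and variance settings, the replicate number as a block, and each library left out. Isoforms and DNA binding were not analysed here.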

Additional observations from a re-analysis of the deposited data

How the results depend on the processing

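Directions of the 10 factors held under all 16 alternatives, and 160 of 160 values moved by less than 1 SD of the replicates. For most of these values that outcome was fixed beforehand. With 3 libraries per group, leaving 1 out cannot move a value that far, and the filter, block and variance settings do not change it. Only the other pseudocounts and the scalings could have moved a value further. Lef1 was past the threshold in 6 of 16 alternatives, Bach2 in 1 (the replicate block) and Zeb1 in 0. Zeb2 was past it in 15, and not without the intensity trend. The set was chosen on this comparison, so these counts are a description and do not show which differences are firm. The median log2 difference of the naive and memory factors ran from 0.122 (without NaCl replicate 3) to 0.265 (without NaCl replicate 2) with 1 library left out, and that of the effector factors from -1.415 to -1.089. Genes higher with itaconate numbered 2400 and ran from 1730.0 to 2460.0 with 1 library left out; genes lower numbered 2340.0, with 1748 to 2540.0. The scalings moved the median of all genes to at most 0.013 on the log2 scale. With the replicate number as a block 2854 genes were higher and 2780.0 lower. Same-numbered libraries deviated together with correlations of 0.147, 0.038 and 0.13, so the numbers were not taken as pairs, although each library correlated best with its own number. Of 701 values of 44 named genes of the lists, 686 stayed on their side of the threshold and 15 lost their call. The 15 were of Ahr, Ets1, Igfbp4, Klf7, Kmt2a, Lag3 and Ncor1. Of 288 list counts 10 moved by over 1.5 times, 6 of them without the intensity trend (MYB relatives 2 up, other naive and memory factors 5 up and 1 down, naive and memory surface genes 3 down, effector surface genes 1 up and 5 down), and the cause was not tested. Prdm1, with 83 to 141 estimated reads in the itaconate libraries, was the most thinly covered of the 10.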

Other observations

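Dntt, the gene of the terminal transferase that adds bases to antigen receptor genes in immature lymphocytes, was measured in all of these libraries of mature T cells. Its mean of 702.6 ± 183 in the NaCl libraries fell to 144.5 ± 50.4 (n = 3, SD), a log2 difference of -2.30 ± 0.26 (SE; limma adjusted p = 4.13e-05). All 3 itaconate libraries (156, 188 and 89.3) were below all 3 controls (493, 786 and 830). Rag2 was at 0 in every library and Rag1 in 5 of them, and Ptcra was at 3.22 or less. Dntt is named here after its value was seen.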
